A study of Mus musculus with 11 samples.

Results

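The axoneme is the microtubule core of the motile cilium, and the genes described here encode its motors and scaffold. They were taken by name: every gene of the count matrices whose symbol begins with Dnah, Dnai, Cfap, Rsph or Tekt. This gave 57 of 31053 genes, namely 15 axonemal dynein heavy chains, the antisense transcript Dnah2os, the dynein intermediate chains Dnaic1 and Dnaic2, 26 cilia- and flagella-associated genes (Cfap), 8 radial spoke genes (Rsph) and 5 tektins. The rule uses names and no measured value. They were followed in 11 droplet single-cell RNA-seq libraries of whole mouse lung, in which enzymatically dissociated lung cells had been filtered and freed of red blood cells.

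The libraries fell into 4 groups by genotype label. WT (+/+) had 1 library at 18 months of age. The p21Het group (p21 +/-) had 3 libraries, the p21mTert group (p21 +/mTert) 5 and the p21mTertCD group (p21 +/mTertCD) 2. The last 3 groups thus each keep 1 + allele of p21 (Cdkn1a), a cell cycle inhibitor. The other allele is labelled -, mTert (mouse telomerase reverse transcriptase) or mTertCD, and the labels do not spell out CD. The WT library and replicate 1 of p21Het and of p21mTert carry shorter titles than the other 8 libraries and are called the first deposit below. Their age fields give 18, 19 and 20 months, although their titles say 18 months as do both label fields of the other 8. WT occurred only in the first deposit and p21mTertCD only in the later one, while p21Het and p21mTert had libraries in both, so p21mTertCD can be compared with them within the later deposit. The labels do not say whether each library came from a separate mouse, so p-values measure the spread between libraries.

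Total depth was 42038434 to 85988955 unique molecular identifiers (UMIs, each standing for 1 captured transcript) per library. Of 81983 barcodes, 69267 passed the limits of 1000 to 30000 UMIs and at most 14% mitochondrial UMIs. Mitochondrial UMIs made up a median of 6.30 to 6.58% in libraries of the first deposit, against 2.82 to 4.28% for those deposited later. Between 9 and 83 barcodes were shared by any pair of libraries (median 23, 55 pairs), and 961 barcodes occurred in more than 1 library. Of the ciliated cells, 42 had such a barcode, and no barcode was ciliated in 2 libraries. Tert had a level of 0.544 to 0.842 CPM in p21Het (CPM, a gene's UMIs scaled to 1000000 UMIs of the same cells in the same library), 2.00 to 3.28 in p21mTert, 1.90 and 2.59 in p21mTertCD and 1.13 in WT. In ciliated cells alone it had only 0 to 13 UMIs per library, too few to compare. Over all kept cells Cdkn1a, the p21 gene itself, had 136.0, 182.8 and 186.8 CPM in p21Het and 155.0 in WT, 123.6 to 160.1 in p21mTert and 118.0 and 174.3 in p21mTertCD, so it was not lower in every library with 1 + allele than in WT. In ciliated cells alone it had 176.3, 212.3 and 187.0 in p21Het and 212.3 in WT. The p21mTert libraries had 102.4 to 152.6 there and the p21mTertCD libraries 154.0 and 129.7, all below every p21Het library and WT. The labels do not say which part of the gene the other alleles lack.

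A cell was called ciliated when it held at least 5 UMIs of Foxj1, Ccdc153 and Tmem212 together. This gave 1619 ciliated cells (2.34% of the kept cells, holding 4.28% of their UMIs) and 67648 other cells. Each library contributed 72 to 242 ciliated cells. The median depth was 14251 UMIs in ciliated cells and 5172.5 in other cells, and 208 ciliated cells scored as likely doublets. Ciliated-cell genes that the gate does not use bore the label out. Sntn, which encodes a protein of the ciliary tip, had a mean of 544.3 CPM in ciliated and 0.700 in other cells, and the dynein light chain gene Dynlrb2 had 1338.4 and 5.42. All 8 such genes were higher in ciliated cells in 11 of 11 libraries.

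In a motile cilium, the outer and inner dynein arms are attached to a ring of doublet microtubules and walk along the neighbouring doublet, which bends the cilium. Each arm is built on heavy chains, the ATP-driven motors, with intermediate and light chains that anchor and regulate them. Radial spokes connect the ring with the central pair and transmit signals to the arms, tektins form filaments within the doublet wall, and many Cfap proteins line the doublets or link arms, spokes and central pair. In the lung this machinery is a property of airway ciliated cells, where it moves mucus, and loss of dynein arm or spoke genes causes primary ciliary dyskinesia. The transcription factors Foxj1 and the RFX family are the known activators of this gene set.

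The start regions of the genes were searched for the short sequences that RFX and forkhead factors are known to bind. RefSeq windows of 300 bases (250 before to 50 after each annotated start, GRCm38.p6) existed for 46 of the 57 genes, as 53 windows, and for 27025 genes in all, as 32851 windows. Both strands were searched. GTTGCC, the short element at either end of an RFX site, was present in 34% of the windows of the axonemal genes and in 12.5% of all windows. A facing pair of a shortened form of this element was then searched as GTTG, 5 bases of any kind and CAAC, a form chosen after the windows had been seen. It was present in 17% of the axonemal windows and 0.444% of all windows. The form with 6 bases between GTTG and CAAC was in 1.89% and 0.581%. A match of either paired form can overlap a GTTGCC match but need not contain one. The forkhead pattern TGTTTAC was in 7.55% against 3.65%, at Cfap20, Cfap43, Dnah17 and Tekt3. The stricter palindrome of GTTNCC, 2 bases of any kind and GGNAAC was in 0 of the 53 axonemal windows and 0.451% of all windows. These matches are a description of the letters in the windows and were not tested as binding sites.

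Paired elements at 7 genes are shown because they recur at genes of different structural roles: the 3 inner-arm heavy chains Dnah7a, Dnah7b and Dnah7c, the outer-arm intermediate chain Dnaic2, the tektins Tekt2 and Tekt4, and Cfap44. Each is written 5′ to 3′ on the strand of its gene, with the match in capitals and 8 bases on either side, in GRCm38.p6 coordinates. The matches at Dnah7a and Dnah7b are flanked by the same bases on both sides. Dnah7c has the same match, so these 3 related genes are not independent occurrences. Rsph3b has its match just after the annotated start.
Cfap44, chr16:44394764-44394793, plus strand: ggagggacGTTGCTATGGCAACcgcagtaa
Tekt4, chr17:25471546-25471574, plus strand: gtgaccctGTTGCTCAGCAACaggaggca
Dnaic2, chr11:114727378-114727406, plus strand: cggccaggGTTGCTAGGCAACtggtaaac
Tekt2, chr4:126325697-126325725, minus strand: agggggcgGTTGCTCGGCAACcagagccg
Dnah7a, chr1:53706821-53706849, minus strand: gccagtttGTTGCTTAGCAACgaatcgac
Dnah7b, chr1:46066821-46066849, plus strand: gccagtttGTTGCTTAGCAACgaatcgac
Dnah7c, chr1:46425441-46425469, plus strand: tccagtttGTTGCTTAGCAACgaatcgac

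Ciliated cells held most of the axonemal transcripts. Although they were 2.34% of the cells, they carried 273422 UMIs of the 57 genes against 79113 in all other cells, or 77.6% of the total. In the median ciliated cell 1.19% of all UMIs came from these genes (5th to 95th percentile 0.615 to 1.64%), against 0.01% in the median other cell. Of the 56 genes with at least 50 UMIs, 51 were higher in ciliated than in other cells in all 11 libraries, where 30.1% of all genes with that many UMIs were, and 2 (Dnah8 and Dnah2os) were lower in all 11. This comparison is a description without a test, since the gate genes are themselves part of the same programme. In 42 of the 51 genes with at least 50 UMIs in ciliated cells, the level in other cells was at most 0.01 of that in ciliated cells. The median of this ratio was 0.0026, and it ranged from 0.00229 to 0.00296 over other gates, left-out doublets, left-out shared barcodes and left-out libraries. For comparison, the ratio was 0.00129 for Sntn and 0.0284 for Tppp3, ciliated-cell genes of other families.

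**Figure D1:**
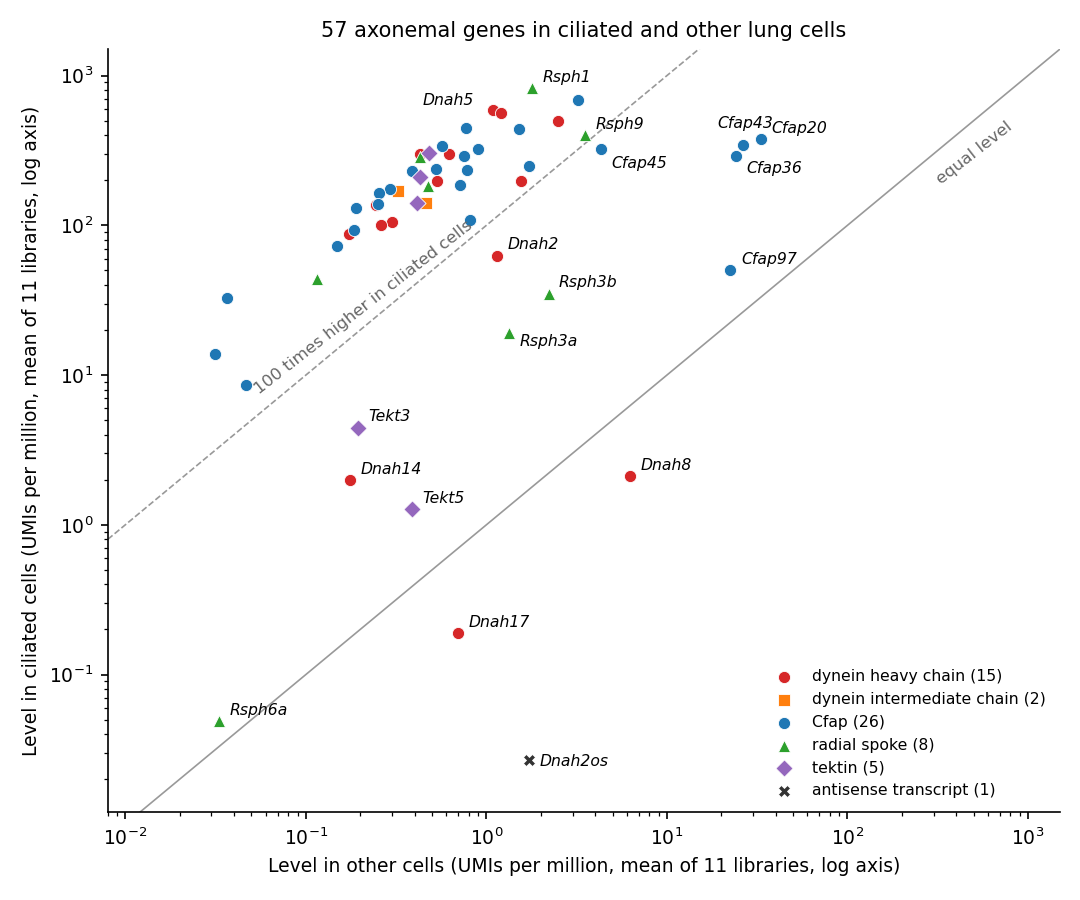
Mean level of each of the 57 genes in ciliated cells (vertical, CPM, log axis) against its mean level in other cells (horizontal, CPM, log axis), over 11 libraries, with colour and shape giving the role. Most genes lie above the dashed line of a 100-fold difference. Cfap20, Cfap36, Cfap43 and Cfap97 lie to its right at 22.5 to 33.0 CPM in other cells, and Dnah8, Dnah17 and Dnah2os lie below the line of equal level.

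The axonemal level was compared across cells by their number of gate UMIs. Cells with 0 gate UMIs had 151.0 axonemal CPM (64528 cells) and those with 1 had 170.5 (2812 cells). The 219 cells with 2 gate UMIs had 374.7, those with 3 had 2333.4 (52 cells), those with 4 had 2048.2 (37 cells), and the 22 cells just inside the gate, with 5, had 2808.7. From 20 UMIs upwards the level flattened, at 11429.7 for 20 to 49, 12210.3 for 50 to 99 and 12532.7 for 100 or more (252 cells). Cells near the gate were shallow, with a median of 1331.0 to 1851.5 total UMIs for 3 to 6 gate UMIs. To compare detection at 1 depth, cells were thinned to 3000 UMIs, which left out 144 shallower ciliated cells. The median ciliated cell then showed 22 of the 57 genes (5th to 95th percentile 14 to 29) and the median of 2000 leukocyte-like cells showed 0, where the unthinned medians were 42 and 1. Rsph1 was detected in 88.9% of thinned ciliated and 0.70% of thinned leukocyte-like cells (98.6% and 1.45% unthinned), and Dnah5 in 79.7% and 0.15% (97.3% and 0.45% unthinned).

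UMIs count transcript ends and are not scaled by transcript length, so the order between genes is an order of captured ends. Among the outer-arm heavy chains, Dnah5, the gene most often mutated in primary ciliary dyskinesia, led with a mean of 593.2 CPM over the 11 libraries (467.5 to 707.2). Dnah9, its partner in the distal part of the cilium, had 297.9 (255.7 to 373.5), and Dnah11, its partner in the proximal part, had 198.7 (180.1 to 220.6). The ranges of these 3 genes did not overlap. The outer-arm heavy chains known from sperm, Dnah8 and Dnah17, were close to absent, at 2.11 and 0.190.

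Of the inner-arm heavy chains, Dnah6 had 560.9 CPM (421.6 to 704.4) and Dnah12 had 497.6 (375.5 to 598.5), overlapping each other and Dnah5. Dnah3 followed at 298.1 (256.4 to 338.7) and Dnah10 at 198.1 (161.7 to 216.1), the latter overlapping Dnah11. The 3 related genes Dnah7a, Dnah7b and Dnah7c had 137.2, 106.1 and 87.9, and Dnah1 had 100.8. Between 40.6% and 62.6% of the 31-base words in the last 500 bases of a Dnah7 transcript also occur in another Dnah7 gene, so the split between the 3 is uncertain. Dnah2 was lowest of the inner-arm genes that were clearly detected, at 62.9 (55.0 to 72.7), and Dnah14 had 1.99. The intermediate chains Dnaic1 and Dnaic2, which tether the outer arm, had 140.9 (112.6 to 175.3) and 170.3 (146.6 to 188.9).

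The radial spoke head gene Rsph1 was the highest of all 57, at 827.0 CPM (673.5 to 956.0). Its neighbours in the spoke head, Rsph9 and Rsph4a, had 398.2 (369.2 to 423.7) and 284.2 (237.0 to 322.3). Rsph10b had 183.3, but its exons overlap Pms2 on the same strand and the 2 cannot be told apart there. The spoke stalk genes Rsph3b and Rsph3a had 35.0 and 19.0, and 89.6% of the 31-base words of their last 500 bases are shared, so their split is uncertain. Rsph14 had 43.5. The sperm paralogue Rsph6a had 1 UMI in all ciliated cells. Among tektins, Tekt1 (303.5), Tekt4 (210.5) and Tekt2 (141.5) made up nearly all of the signal, with Tekt3 at 4.45 and Tekt5 at 1.27.

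The Cfap genes ranged from Cfap126 (Flattop), a protein of the doublet lumen needed for basal body positioning, at 685.4 CPM (565.2 to 770.5), to Cfap99 at 8.65. The next highest were Cfap44 at 445.1 (382.1 to 534.0), which works with Cfap43 to tether an inner-arm dynein, and the doublet protein gene Cfap53 at 437.9 (361.6 to 487.5). Cfap20, another doublet protein, had 378.7 (253.7 to 524.8), and Cfap43 had 345.8 (311.5 to 402.9). Central-pair genes such as Cfap54 (322.4), Cfap46 (187.4) and Cfap221 (32.9) spanned a wide range among themselves. Levels kept nearly the same order in every library: Spearman's rho between libraries over the 57 genes was 0.970 to 0.995 (median 0.987, 55 pairs of libraries, genes not being independent). Among the 44 genes with at least 1000 UMIs, the coefficient of variation over the 11 libraries was 5.20% for Rsph9 at the low end and 27.1% for Cfap45 at the high end, with a median of 11.1%.

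A minority of the genes was also found outside ciliated cells. Summed over the 57 genes, other cells had 155.6 CPM, and cells without a single gate UMI still had 152.5. This sum was about as high without cells near the gate, but it was led by Cfap20, Cfap43, Cfap36 and Cfap97. In cells without a gate UMI the ratio to the ciliated level was 0.00183 for Rsph1 (0.00216 in all other cells) and 0.00132 for Tekt1 (0.00159). It was nearly unchanged for Cfap20 (0.0865 against 0.0872) and Dnah2 (0.0184 against 0.0182). The ratio of the other to the ciliated level differed widely between genes, from 0.00112 for Cfap221 to 0.446 for Cfap97 among genes with at least 50 ciliated UMIs. The 5 highest ratios in that class were those of Cfap97 (0.446), Cfap20 (0.0872), Cfap36 (0.083), Cfap43 (0.0761) and Rsph3a (0.0703). In other cells, Cfap20 had a mean of 33.0 CPM over the 11 libraries, Cfap43 26.3, Cfap36 24.0 and Cfap97 22.5, against 1.79 for Rsph1. After thinning to 3000 UMIs, Cfap43 was detected in 11% of leukocyte-like cells, Cfap20 in 7.05%, Cfap97 in 7.0% and Cfap36 in 6.75%.

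To see which cells these were, other cells were grouped by short marker lists when they had at least 3 UMIs of exactly 1 list. The groups were leukocyte-like (39799 cells), endothelial-like (4996), mesenchymal-like (1851), AT2-like and AT1-like (alveolar type 2 and type 1, 749 and 293) and club-like (secretory airway cells, 339). A further 15929 cells met several lists and 3692 met none. Cfap20 was present at 24.6 to 57.5 CPM in all 6 groups. It was highest in AT2-like cells (95% Poisson interval 47.7 to 68.7, counting error only), overlapping endothelial-like cells at 52.5 (49.1 to 56.0). Cells that met several lists held 48.7% of its UMIs outside ciliated cells. Cfap36 reached 75.5 in AT1-like cells, against 21.4 in leukocyte-like cells. Cfap97 was at 6.44 in club-like and 32.8 in endothelial-like cells, and at 50.1 in ciliated cells. Cfap43 stood at 36.3 in endothelial-like and 32.7 in leukocyte-like cells but at 7.12 in AT2-like cells. Exons of Cfap43 overlap Itprip on the same strand and Itprip has no row of its own in the matrix, so reads of the 2 genes cannot be told apart.

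**Figure D2:**
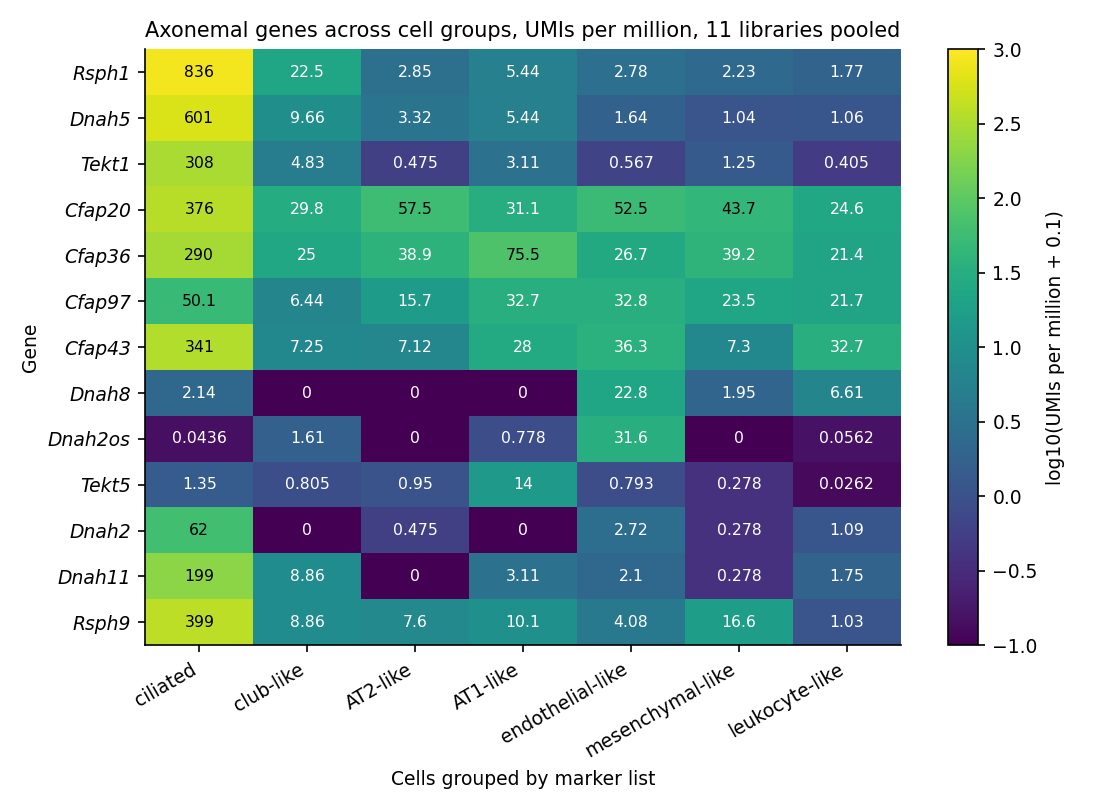
Pooled level (CPM, 11 libraries) of 13 axonemal genes in ciliated cells and in 6 groups of other cells defined by marker lists, with colour on a log10 scale after adding 0.1. Rsph1, Dnah5 and Tekt1 stand out in ciliated cells at 307.5 to 835.5, whereas Dnah2os and Dnah8 are highest in endothelial-like cells at 31.6 and 22.8, and Tekt5 in AT1-like cells at 14.0.

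Several genes were unevenly spread over the groups of non-ciliated cells, and those described here were chosen after their values had been seen. Dnah2os, which overlaps Dnah2 on the opposite strand, had 557 of its 905 UMIs (61.5%) outside ciliated cells in endothelial-like cells, at 31.6 CPM (95% Poisson interval 29.0 to 34.3, counting error only), and 1 UMI in all ciliated cells. It was found at 0.796 to 3.59 CPM in the other cells of every library. The 760 cells with a Dnah2os UMI had 17.8 times the level of Cxcl12 (1112.6 against 57.8 CPM) and of Gpihbp1, a capillary endothelial gene, and were no deeper than the rest (median 4692 against 5178 UMIs). The authors' counting is not stated to use strand, so reads of Dnah2os and Dnah2 cannot be told apart with certainty. In endothelial-like cells Dnah2 itself had 2.72 CPM.

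Dnah8, an outer-arm heavy chain of sperm, had 22.8 CPM (20.7 to 25.2) in endothelial-like and 6.61 (6.30 to 6.92) in leukocyte-like cells and 0 UMIs in club-like, AT2-like and AT1-like cells. Its upper limits there were 2.97, 1.75 and 2.87. No 31-base word of the last 500 bases of Dnah8 occurs in its closest relative Dnah5. The 2675 other cells with a Dnah8 UMI had a median of 6460 UMIs, against 5128 in the rest. They had 4.38 times the level of the histone gene Hist1h1b, 4.10 times that of Cd8b1 and 3.89 times that of Lef1, a gene of naive T cells. Cd8b1 was found in 32.6% and Lef1 in 36.3% of these cells. Tekt5 had 142 of its 193 UMIs outside ciliated cells (73.6%) in cells that met several lists. Among the single-list groups it had 14.0 CPM (8.30 to 22.1, 18 UMIs) in AT1-like cells. The 163 other cells holding it had a median of 8188 UMIs, against 5167 in the rest. They had 37.3 times the level of the AT1 gene Rtkn2, 30.7 times that of Emp2 and 29.9 times that of Ednrb, a capillary endothelial gene. Emp2 was found in 91.4% of them and Ednrb in 58.9%, but Rtkn2 in only 23.3%.

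Cells holding a UMI of a gene at low level outside ciliated cells are described next. Their share from free RNA was not tested. The ratio of other to ciliated level was 0.00216 for Rsph1, 0.00499 for Dnah12, 0.00784 for Dnah11 and 0.0182 for Dnah2. Among the ciliated-cell genes that the gate does not use, it ran from 0.00129 for Sntn to 0.0284 for Tppp3, with 0.00268 for Pifo and 0.00405 for Dynlrb2. The cells holding these genes were also deeper than the rest, with a median of 7790 against 5144 UMIs for Dnah12, 11263 against 5152 for Dnah2, 13329 against 5152 for Dnah11 and 6229.5 against 5164 for Rsph1. The 979 other cells with a Dnah12 UMI had 11.3 times the level of Cd300e and 9.77 times that of Treml4, genes of non-classical monocytes, and the 517 cells with Dnah2 had 6.14 times the level of Cd300e. The 579 cells with a Dnah11 UMI had 17.7 times the level of Ear1, a gene of alveolar macrophages, and 12.9 times that of Cidec. Cells with Rsph1 had 12.2 times the level of the immunoglobulin gene Igha and 6.00 times that of Jchain. The co-detected genes named here are among the 5 leading ones by fold, computed after adding 5 CPM to both levels, and describe these cells without a test. By pooled UMIs, 37 of the 49 genes with at least 50 UMIs in the 6 groups were highest in club-like cells. This order rested on few UMIs in few libraries: by the median over libraries, 4 of 49 were highest there.

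The share of ciliated cells was compared first between genotypes, because in whole tissue more cells of a type and more RNA per cell cannot be told apart. It was 2.47% in WT (95% exact binomial interval 2.08 to 2.92%). In p21Het it was 2.25, 2.26 and 1.52% (mean 2.01 ± 0.428, SD, n = 3). The 5 p21mTert libraries had 1.64, 3.22, 3.36, 3.19 and 2.25% (2.73 ± 0.754, SD, n = 5), and the p21mTertCD libraries 1.95 and 1.29% (1.62 ± 0.471, SD, n = 2). Replicates 2, 3 and 4 of p21mTert were above every other library, and the rest of the groups overlapped. Two-sided exact permutation tests were adjusted over the 3 differences, and with this many libraries none of the 3 could have passed 0.05 after adjustment. In these exact tests the difference was 0.72 percentage points for p21mTert minus p21Het (p = 0.232, adjusted 0.348, smallest possible 0.0179), 1.11 for p21mTert minus p21mTertCD (p = 0.19, adjusted 0.348, smallest possible 0.0476) and -0.392 for p21mTertCD minus p21Het (p = 0.5, adjusted 0.5, smallest possible 0.1). The last of these was -0.0593 without p21mTertCD replicate 2, -0.725 without p21mTertCD replicate 1 and -0.639 without p21Het replicate 3, and the first was 0.473 without p21Het replicate 3. Within the later deposit the exact permutation test gave 1.11 (p = 0.133), 1.38 (p = 0.0667, the smallest it can give) and -0.272 (p = 0.667). The cell limits kept unlike parts of the barcodes that passed the gate. They kept 89 of 164 in p21Het replicate 3 and 72 of 133 in p21mTertCD replicate 2, against 212 of 263 in p21mTert replicate 3. In p21Het replicate 2 they kept 193 of 273, and in p21mTert replicate 1 102 of 143. Over all deposited barcodes, without the cell limits, the group means were 2.67% in p21Het, 3.0% in p21mTert and 2.26% in p21mTertCD. The differences were then 0.326 (p = 0.5), 0.744 (p = 0.333) and -0.417 (p = 0.3) by the exact permutation test.

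**Figure D3:**
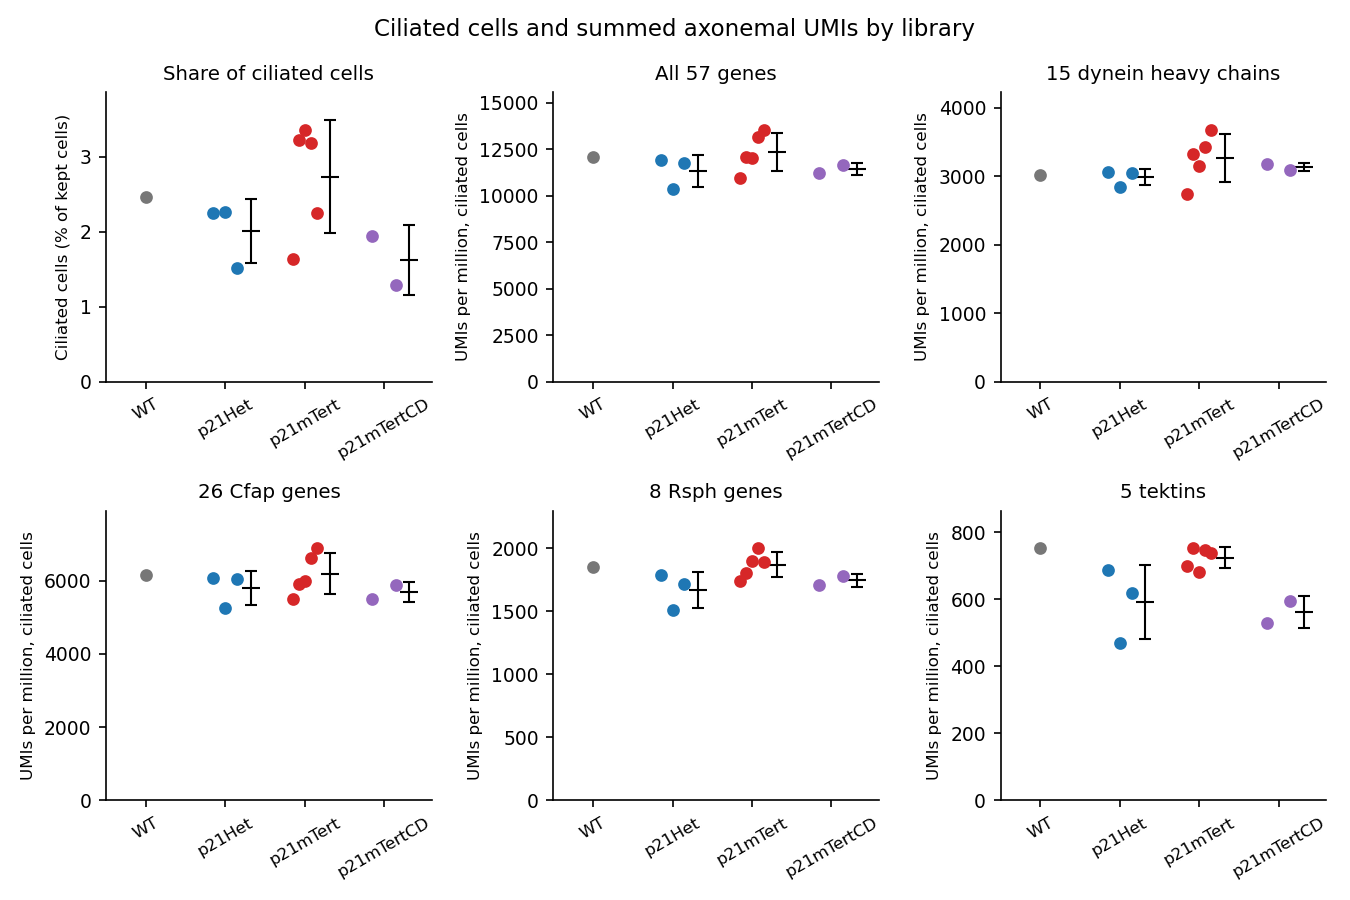
Share of ciliated cells (percent of kept cells) and summed CPM of the axonemal genes by role in ciliated cells. Each point is a library, and bars give the mean ± SD for groups with more than 1 library. The p21mTert libraries reach 3.36% ciliated cells and 13541.6 axonemal CPM, with the groups overlapping in most panels, while both p21mTertCD libraries (529.0 and 595.1) lie below all 5 p21mTert libraries (682.7 to 751.7) for tektins.

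Within ciliated cells, the summed level of all 57 genes was similar in the 4 groups. It was 12107.0 CPM in WT, and p21Het averaged 11332.4 ± 857.4 (SD, n = 3). The p21mTertCD mean was 11427.1 ± 310.0 (SD, n = 2). The p21mTert libraries had 12365.3 ± 1012.4 (SD, n = 5). Every group lay within 10347.3 to 13541.6. Heavy chains had 2986.1 ± 119.0 in p21Het, 3265.7 ± 349.0 in p21mTert and 3133.8 ± 54.8 in p21mTertCD. Spoke genes had 1670.4 ± 144.9, 1867.9 ± 98.3 and 1745.6 ± 52.2 in the same order. Tektins had 592.0 ± 110.7, 724.4 ± 31.1 and 562.1 ± 46.7, and 752.2 in WT. Summed over all cells, the level followed the share of ciliated cells, at 754.4 in WT, 560.9 ± 122.6 in p21Het, 793.9 ± 160.9 in p21mTert and 439.7 ± 72.3 in p21mTertCD.

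Gene by gene, UMIs were summed per library over ciliated cells and fitted with edgeR's quasi-likelihood test over all 11155 genes that passed the filter on low counts, 51 of the 57 axonemal genes among them. None of the 51 was called at an adjusted p under 0.05 in any of the 3 contrasts. Over all genes tested, 0.0538% were called for p21mTert minus p21Het, 0.0179% for p21mTert minus p21mTertCD and 0.00896% for p21mTertCD minus p21Het. DESeq2 called 0, 1 and 0 of the axonemal genes, but it also called more genes in all than edgeR, as given in the last section. On simulated counts of the same design, the edgeR fit recovered 63% of 2-fold and 97% of 4-fold changes for p21mTert minus p21Het, 53% and 88% for p21mTert minus p21mTertCD, and 54% and 73% for p21mTertCD minus p21Het. It made 9, 10 and 14 false calls beside the 200 changed genes. Changes smaller than 2-fold were not simulated.

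For p21mTert minus p21Het in ciliated cells, most axonemal genes were slightly higher in p21mTert, and no single gene passed the test. 43 of 51 had a positive log2 fold change, against 48.7% of all genes, and their median was 0.12 against -0.01. By role, 7 of 7 spoke genes, 4 of 4 tektins, 22 of 26 Cfap genes, 9 of 12 heavy chains and 1 of 2 intermediate chains were on the positive side. At an unadjusted p under 0.05, 7 genes were higher and 0 lower, where 8.6% of all genes were at that level, 3.66% higher and 4.94% lower. The median of the axonemal genes was 0.15 in the later deposit alone, 0.08 with a term for the deposit, 0.08 without likely doublets and 0.03 over all deposited barcodes. The lowest summed level of all 11 libraries was in p21Het replicate 2 (10347.3 CPM). The other p21Het libraries, at 11910.3 and 11739.5, lay within the p21mTert range of 10975.2 to 13541.6. The genes were counted in the same libraries, so the 51 signs are not independent.

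The smallest p-values belonged to Dnaic1 and 2 tektins. Dnaic1 had 112.6, 117.4 and 130.4 CPM in p21Het, 132.8, 147.6, 151.0, 175.3 and 170.0 in p21mTert, 129.7 and 137.0 in p21mTertCD and 146.4 in WT. All p21mTert libraries were above all p21Het libraries, with 155.3 ± 17.3 (SD, n = 5) against 120.2 ± 9.24 (SD, n = 3). Its log2 fold change was 0.36 (SE 0.114, unadjusted p = 0.00785, edgeR adjusted p = 0.457). Tekt1, a tektin of the doublet wall, had 324.1, 225.6 and 258.5 in p21Het, 312.2, 344.1, 315.2, 343.6 and 340.0 in p21mTert, 257.8 and 273.2 in p21mTertCD and 344.6 in WT. Its groups overlapped only through replicate 1 of p21Het, and the log2 fold change was 0.30 (SE 0.0978, unadjusted p = 0.00987, edgeR adjusted p = 0.485). Tekt2 had 153.8, 84.6 and 134.4 in p21Het, 168.8, 165.4, 135.4, 159.4 and 164.9 in p21mTert, 88.6 and 115.9 in p21mTertCD and 185.8 in WT, with a log2 fold change of 0.36 (SE 0.136, unadjusted p = 0.0188, edgeR adjusted p = 0.515). Within the later deposit the log2 fold changes were 0.32 for Dnaic1, 0.42 for Tekt1 and 0.49 for Tekt2, with edgeR adjusted p of 0.263, 0.134 and 0.276. Without p21Het replicate 2, the lowest library, the Tekt2 value was 0.18.

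Among the most abundant genes, Rsph1 and Dnah5 are given in full. Rsph1 had 815.1, 673.5 and 787.4 CPM in p21Het, 802.3, 851.7, 914.2, 956.0 and 853.2 in p21mTert, 761.9 and 815.8 in p21mTertCD and 866.0 in WT, with overlapping groups. Dnah5 had 570.1, 590.8 and 535.2 in p21Het, 467.5, 578.4, 661.9, 650.6 and 707.2 in p21mTert, 659.3 and 615.3 in p21mTertCD and 489.3 in WT. Its p21mTert libraries spanned the p21Het range on both sides, while both p21mTertCD libraries were above all p21Het libraries (log2 fold change 0.22, unadjusted p = 0.23, edgeR adjusted p = 1).

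Other cilia genes were listed by function, and edgeR called none of them in this contrast, where 48.7% of all genes were positive and 8.6% had an unadjusted p under 0.05. All 13 tested genes of the outer-arm docking and nexin regulatory complexes were on the positive side (median log2 fold change 0.19), and 4 had an unadjusted p under 0.05, namely Ccdc114 (0.33), Ttc25 (0.30), Drc1 (0.31) and Gas8 (0.26). Of the 17 intraflagellar transport genes, which carry cargo along the cilium, 11 were positive (median 0.11), with Wdr19 (0.22) and Ift27 (0.25) at an unadjusted p under 0.05. Of 9 dynein assembly factors 6 were positive (median 0.02), and Lrrc6 (0.24) had an unadjusted p under 0.05. The 7 central pair genes (6 positive, median 0.10) and 6 regulators of multiciliation (4 positive, median 0.12) had no gene at that level. Of 11 dynein intermediate and light chain genes, a list that includes Dnaic1 and Dnaic2 described above, 8 were positive (median 0.05), and none besides Dnaic1 was at that level. UMIs of the marker lists of other cell types were also counted in the ciliated cells. Their group means differed, but the libraries of the groups overlapped for every list, and the source of these UMIs was not tested. The summed club-like markers had a mean of 2315.5 CPM (SD 317.4, n = 3) in ciliated cells of p21Het, against 2024.1 (SD 127.5, n = 5) for p21mTert and 2673.4 (SD 731.6, n = 2) for p21mTertCD. The leukocyte-like markers had 233.6 ± 46.0, 187.2 ± 148.0 and 234.4 ± 232.6, and the endothelial-like markers 49.3 ± 31.2, 34.6 ± 17.4 and 12.6 ± 3.54. The AT1-like markers had 413.7 ± 86.7, 484.9 ± 34.6 and 428.9 ± 72.4, the AT2-like markers 171.4 ± 34.9, 172.3 ± 84.9 and 133.2 ± 21.1, and the mesenchymal-like markers 8.85 ± 6.82, 26 ± 28 and 17.6 ± 9.40. Their part in these differences was not tested.

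**Figure D4:**
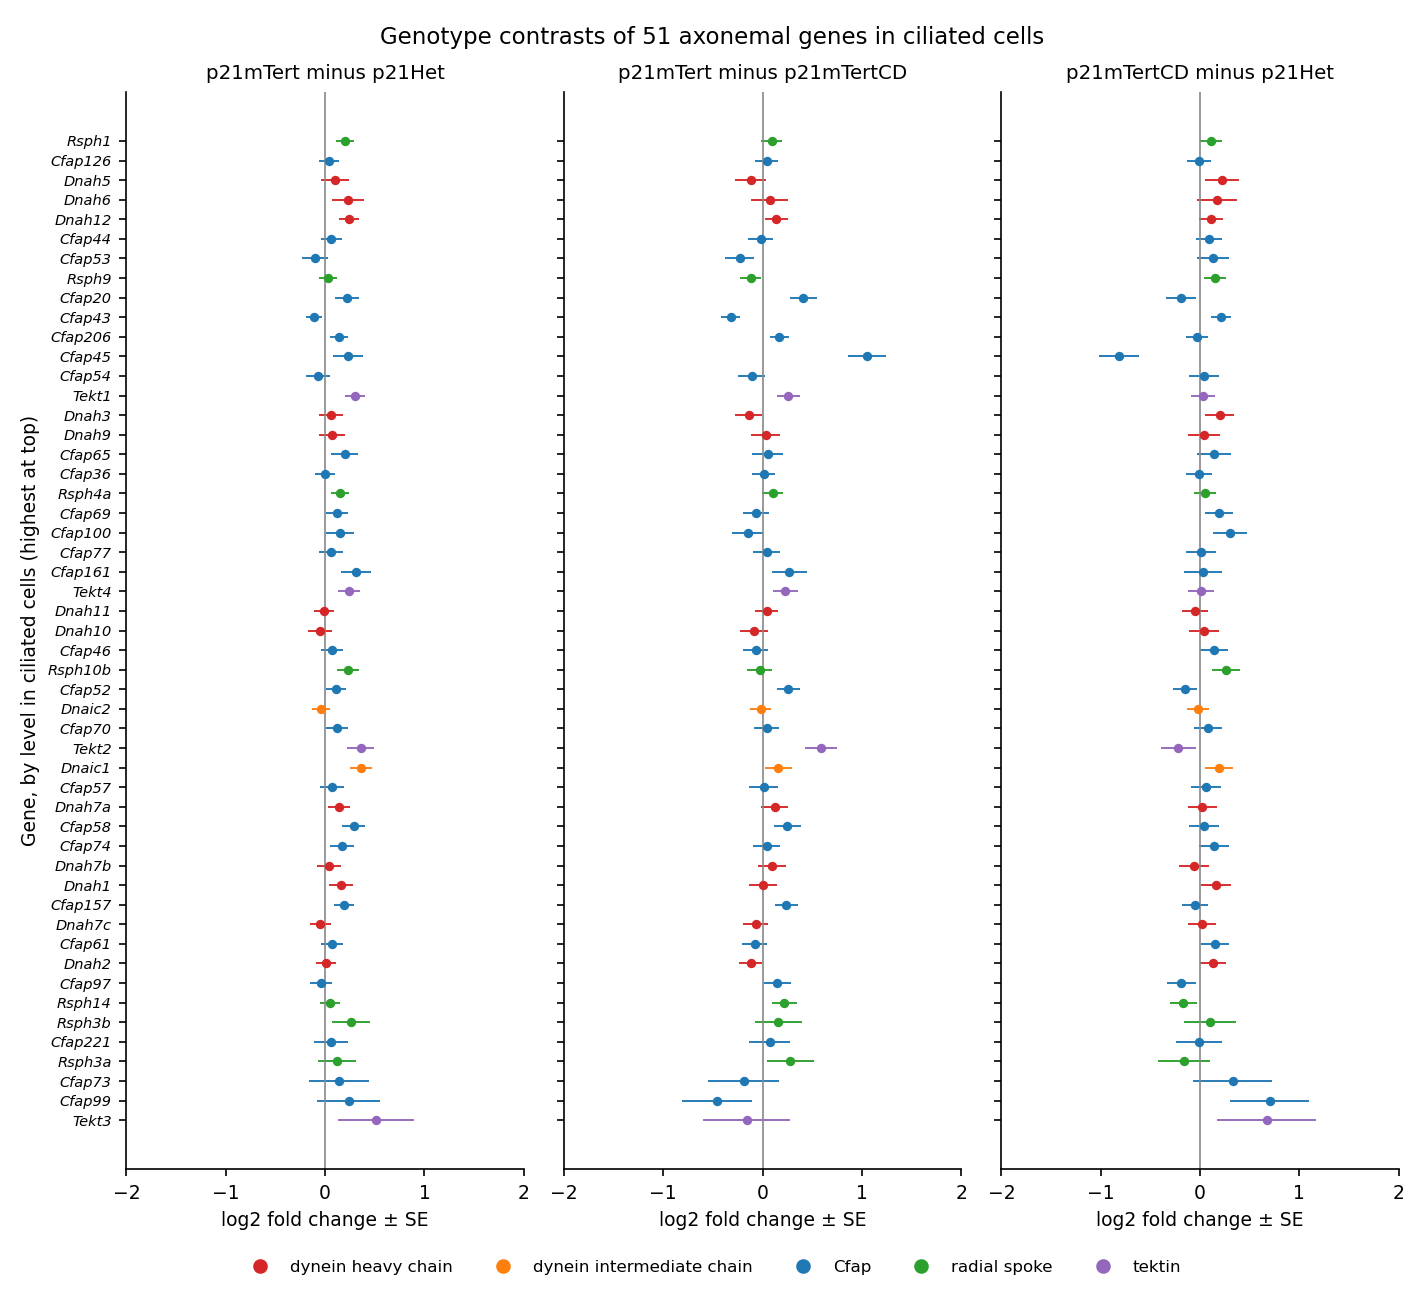
Log2 fold change (points) and standard error (bars) of the 51 axonemal genes tested in ciliated cells, for 3 genotype contrasts, ordered by level. Most points of p21mTert minus p21Het lie to the right of 0 (43 of 51), none passing an adjusted p under 0.05. Cfap45 stands apart in both contrasts with p21mTertCD, at 1.05 and -0.82.

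The contrast of the mTert alleles, p21mTert minus p21mTertCD, was centred near 0 in ciliated cells, with 31 of 51 genes higher in p21mTert (49.8% of all genes) and a median log2 fold change of 0.04. At an unadjusted p under 0.05, 5 were higher and 1 lower, where 9.28% of all genes were at that level, 4.28% higher and 5.0% lower. Tekt2 had a log2 fold change of 0.59 (SE 0.163, unadjusted p = 0.00329, edgeR adjusted p = 0.39), both p21mTertCD libraries lying below all p21mTert libraries. Cfap43 was the 1 lower gene, with 375.0 and 402.9 CPM in p21mTertCD, 315.0, 311.5, 313.4, 344.6 and 341.9 in p21mTert, 368.0, 338.2 and 332.4 in p21Het and 360.9 in WT. Its p21mTertCD libraries were above all 9 others, and the log2 fold change was -0.32 (SE 0.0951, unadjusted p = 0.00549, edgeR adjusted p = 0.41). As said above, reads of Itprip cannot be told apart from those of Cfap43, so this difference cannot be assigned to Cfap43 alone. For p21mTertCD minus p21Het, 36 of 51 genes were positive (median 0.05, against 49.2% of all genes). Only Cfap45 had an unadjusted p under 0.05, where 4.34% of all genes had, 2.25% higher and 2.09% lower. These 3 contrasts share libraries pairwise.

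In ciliated cells, Cfap45 had the largest log2 fold change of the 51 genes in both contrasts with p21mTertCD. It encodes a protein of the doublet lumen and lies on chromosome 1 at 172520801 to 172545870 (mm10, plus strand). In ciliated cells it had 196.7 and 154.5 CPM in p21mTertCD, 283.2, 360.6, 411.6, 422.4 and 427.9 in p21mTert, 303.7, 322.7 and 341.1 in p21Het and 336.1 in WT. Both p21mTertCD libraries were thus below all 9 others. The log2 fold change was 1.05 for p21mTert minus p21mTertCD (SE 0.191, unadjusted p = 0.000106, edgeR adjusted p = 0.159) and -0.82 for p21mTertCD minus p21Het (SE 0.202, unadjusted p = 0.00136, edgeR adjusted p = 1). The first of these passed in the later deposit alone (1.14, edgeR adjusted p = 0.0193), with a term for the deposit (1.12, adjusted p = 0.0152), without p21mTert replicate 1 (1.14, adjusted p = 0.0213) and with DESeq2 (adjusted p = 6.56e-05). Of 21 alternatives, these and the fit with no filter on low counts were the 5 that passed, and the other 16 did not. Leaving out 1 library gave log2 fold changes of 0.84 to 1.31. Of 51 axonemal genes with at least 50 ciliated UMIs, Cfap45 and Rsph14 were below all other libraries in both p21mTertCD libraries, where 3.38% of all such genes were, and Cfap43 was above, where 1.54% were.

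Outside ciliated cells, Cfap45 was also lowest in the p21mTertCD libraries. It had 2.21 and 2.34 CPM in other cells of p21mTertCD, 4.84, 4.84, 4.48, 5.49 and 4.85 in p21mTert, 4.31, 4.66 and 5.22 in p21Het and 3.92 in WT, again without overlap. Of 53 axonemal genes with at least 50 UMIs in other cells, Cfap45, Rsph4a and Tekt4 were below all other libraries in both p21mTertCD libraries, where 1.97% of all such genes were, and 0 were above, where 2.12% were. The log2 fold change was 1.05 (SE 0.166, unadjusted p = 9.78e-05, edgeR adjusted p = 0.15) for p21mTert minus p21mTertCD and -1.05 (SE 0.177, unadjusted p = 0.000157, edgeR adjusted p = 0.0621) for p21mTertCD minus p21Het. In leukocyte-like cells it had 2.3 CPM in the 2 p21mTertCD libraries (95% Poisson interval 1.92 to 2.72) and 4.89 (4.60 to 5.20) in the other 9. Endothelial-like cells had 4.65 (2.32 to 8.32) against 6.35 (5.15 to 7.74) and mesenchymal-like cells 2.31 (0.928 to 4.75) against 3.88 (2.82 to 5.21), so the intervals overlapped there. Cells that met no list had 2.71 (0.88 to 6.32) against 2.57 (1.74 to 3.67). Cfap45 exons overlap 4933439K11Rik on the opposite strand.

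The genes around Cfap45 were then examined, which was decided after its values had been seen. Of 29 annotated genes within 500 kb on either side, 13 were tested in ciliated and 20 in other cells, and 1 was called in each of the contrasts with p21mTertCD. In ciliated cells this was Slamf8 (chromosome 1, 172581758 to 172590568, minus strand), a receptor gene otherwise known from macrophages. It had 44.3 and 47.8 CPM in ciliated cells of p21mTertCD, 0, 1.18, 1.04, 1.28 and 0 in p21mTert, 1.65, 2.58 and 0.786 in p21Het and 0 in WT. Of 200 ciliated cells of p21mTertCD, 85 held a Slamf8 UMI (134 UMIs), against 17 of 1419 ciliated cells of the other libraries (22 UMIs). The log2 fold change was -5.68 (SE 0.431, edgeR adjusted p = 8.16e-05) for p21mTert minus p21mTertCD and 4.62 (SE 0.482, edgeR adjusted p = 0.00349) for p21mTertCD minus p21Het. In other cells Slamf8 had 5.35 and 6.33 in p21mTertCD and 4.42 to 9.79 elsewhere, with overlap.

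In other cells the called neighbour was Vsig8 (chromosome 1, 172555938 to 172563717, plus strand), an immunoglobulin-domain gene that lies between Cfap45 and Slamf8. It had 9.05 and 6.70 CPM in other cells of p21mTertCD and 0.058 to 0.446 in the 9 other libraries. The log2 fold change was -5.49 (SE 0.417, edgeR adjusted p = 0.00256) for p21mTert minus p21mTertCD and 4.85 (SE 0.486, edgeR adjusted p = 0.00977) for p21mTertCD minus p21Het. It stood at 8.10 against 0.105 in leukocyte-like and 12.2 against 0.176 in mesenchymal-like cells. In ciliated cells the Vsig8 levels overlapped (5.4 and 0.920 in p21mTertCD, 2.12 to 5.62 elsewhere, 82 UMIs in all). The neighbours Tagln2, Copa, Dcaf8, Igsf8 and Ncstn overlapped between the p21mTertCD and the other libraries in both compartments. Beyond Cfap45, Slamf8 and Vsig8, an unadjusted p under 0.05 was found for Igsf8 in ciliated cells (p21mTertCD minus p21Het 0.36, unadjusted p = 0.0319, edgeR adjusted p = 1). In other cells it was found for Vangl2, with overlapping groups (p21mTert minus p21mTertCD 0.84, unadjusted p = 0.0408, edgeR adjusted p = 0.407, and p21mTertCD minus p21Het -0.87, unadjusted p = 0.0466, edgeR adjusted p = 0.784). Against p21Het, the Slamf8 call was lost without p21mTertCD replicate 1 (adjusted p = 0.224) or replicate 2 (0.086), and the Vsig8 call in the later deposit alone (0.108), without p21Het replicate 1 (0.0877) or without p21mTertCD replicate 1 (0.112). The log2 fold changes there lay between 4.55 and 4.66. The 2 p21Het and 4 p21mTert libraries deposited together with p21mTertCD had 0 to 2.58 CPM of Slamf8 in ciliated cells and 0.111 to 0.446 CPM of Vsig8 in other cells.

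**Figure D5:**
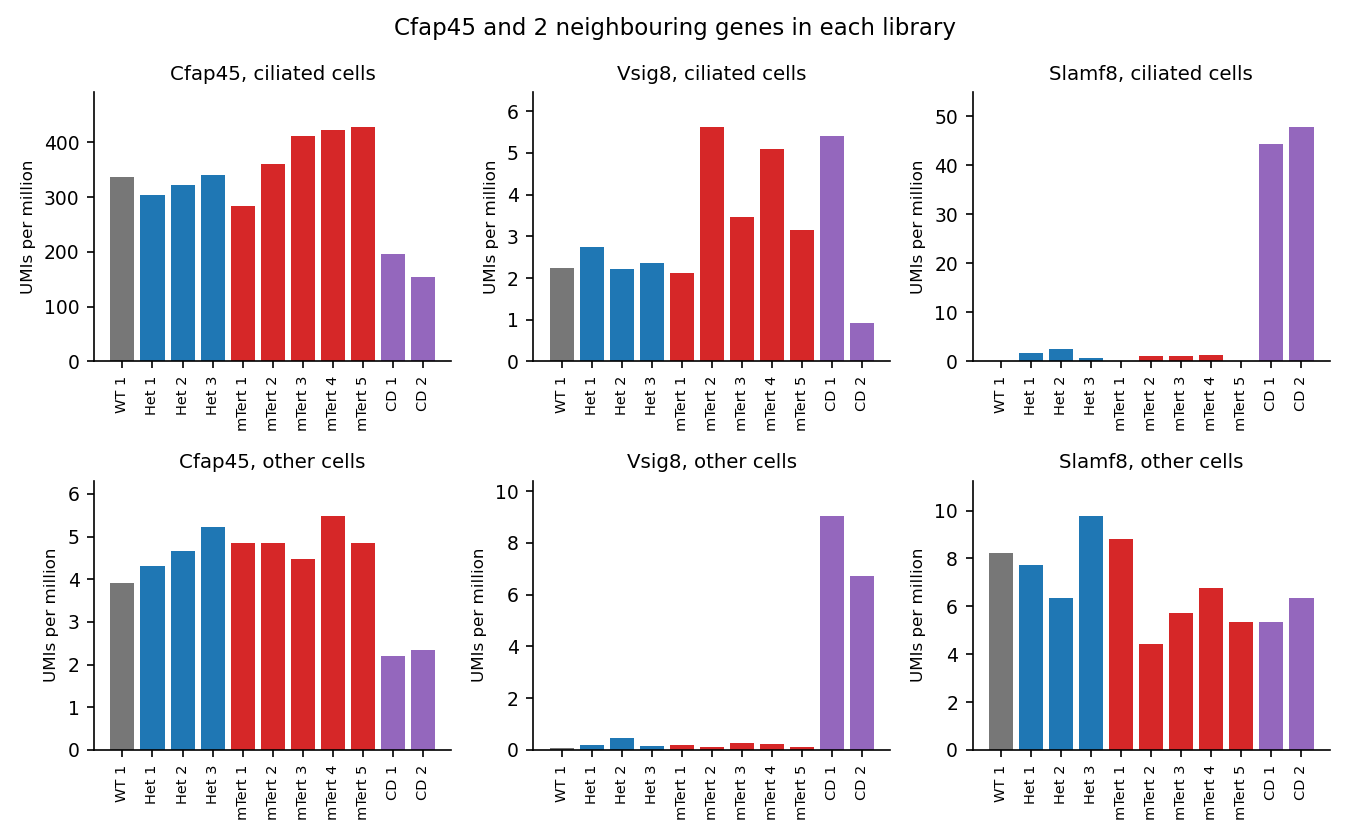
CPM of Cfap45 and its neighbours Vsig8 and Slamf8 in each library, in ciliated cells (top) and other cells (bottom), with colour giving the genotype. In both p21mTertCD libraries Cfap45 is lowest in both compartments, Slamf8 is high in ciliated cells (44.3 and 47.8) and Vsig8 is high in other cells (9.05 and 6.70).

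Among other cells as a whole, 52 of the 57 genes were tested with 17161 genes in all, and edgeR called none of them, where 0.0117%, 0.00583% and 0.122% of all genes were called for p21mTert against p21Het, p21mTert against p21mTertCD and p21mTertCD against p21Het. DESeq2 called 0, 1 and 1 of them, Cfap45 in both cases, but it also called more genes in all than edgeR, as given in the last section. On simulated counts the edgeR fit recovered fewer changes here than in ciliated cells, with 42%, 36% and 22% of 2-fold and 79%, 76% and 69% of 4-fold changes in the same order. It made 6, 4 and 3 false calls. At an unadjusted p under 0.05 there were 0 higher and 1 lower in the first contrast (5.56% of all genes, 2.26% higher and 3.3% lower), 6 higher and 0 lower in the second (12.1%, 6.0% and 6.06%) and 0 higher and 3 lower in the third (6.35%, 3.68% and 2.67%). Levels tended to be lowest in p21mTertCD: 45 of 52 genes were higher in p21mTert (median log2 fold change 0.33, 51.4% of all genes) and 40 of 52 lower than in p21Het (median -0.28, 45.1% of all genes higher). The share of ciliated cells was also lowest in p21mTertCD, as given above, and its part in these differences was not tested.

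After Cfap45, the genes of other cells with an unadjusted p under 0.05 were of low level. Dnah2 had 1.39, 1.49 and 1.82 CPM in p21Het, 0.989, 1.19, 0.728, 1.05 and 1.20 in p21mTert, 0.796 and 0.779 in p21mTertCD and 1.19 in WT. All p21Het libraries were the highest, with log2 fold changes of -0.66 for p21mTert (unadjusted p = 0.0133, edgeR adjusted p = 0.814) and -0.98 for p21mTertCD (unadjusted p = 0.00653, edgeR adjusted p = 0.436) against p21Het. Tekt5 had 0.109 and 0.205 in p21mTertCD, 0.454, 0.520, 0.321, 0.841 and 0.529 in p21mTert, 0.429, 0.354 and 0.124 in p21Het and 0.348 in WT. Its log2 fold change for p21mTert minus p21mTertCD was 1.70 (unadjusted p = 0.00839, edgeR adjusted p = 0.391), and that of Tekt3 was 1.58 (unadjusted p = 0.0196, edgeR adjusted p = 0.392). The Tekt3 value was 0.99 without p21mTertCD replicate 1 and 2.53 without p21mTertCD replicate 2. For the same contrast Dnah2os had 1.30 (unadjusted p = 0.0202), Rsph4a 0.86 (unadjusted p = 0.035) and Tekt4 0.88 (unadjusted p = 0.0358). Cfap74, a central-pair gene, had a log2 fold change of -0.73 for p21mTertCD minus p21Het (unadjusted p = 0.044, edgeR adjusted p = 0.778). None of these passed the test over all genes.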

How the data were processed

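Droplet 3′ single-cell RNA-seq libraries of mouse lung were read as the UMI counts per gene and barcode that the authors deposited (Cell Ranger, mm10, per the submitters' processing notes; version not given consistently in the sources used here). Depth is given with the results. Cells were kept between 1000 and 30000 UMIs, with no more than 14% from mitochondrial genes. Scrublet scores marked likely doublets, which were left in and removed in an alternative. Counts were summed per library over ciliated and other cells and scaled to 1000000 UMIs of those cells for CPM. The library was the replicate. Sums were tested with edgeR 4.0.16 (R 4.3.3) by the quasi-likelihood test with TMM scaling, filterByExpr and Benjamini-Hochberg adjustment over all genes, with genotype as the only term and the 10 libraries of the replicated groups sharing 1 estimate of the spread. WT entered no test. Shares were tested by exact permutation in scipy 1.17.1. The fits were checked on simulated data. All genes of the name rule could be named. The genes, lists and tests were chosen with earlier results of these data known. Alternatives were DESeq2 1.42.0, no filter on low counts, other gates and cell limits, doublets or shared barcodes left out, a deposit term, the later deposit alone, a replicate block and leaving out each library. Intervals cover counting error only. One sequence match is not reported here.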

Additional observations from a re-analysis of the deposited data

Results flagged for a closer look

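A search for a library far from the rest of its group was made only in p21mTert, which has 5 libraries. The smaller groups were not tested. Of 48 measures tested, 3 had such a library by Dixon's criterion, and chance alone gives about 1 in 20. Summed tektins in other cells had 2.9 CPM in p21mTert replicate 4, against 1.99 to 2.19 in the other 4 p21mTert libraries. Tekt2 in ciliated cells had 135.4 in p21mTert replicate 3, against 159.4 to 168.8. Rsph3a in other cells had 0.919 in p21mTert replicate 5, against 1.39 to 1.5.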

How the results depend on the processing

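The count of axonemal genes called in ciliated cells for p21mTert minus p21mTertCD was 0, and it was 1 (Cfap45) with DESeq2, with no filter on low counts, with a deposit term and in the later deposit alone. Leaving out 1 library gave 0 to 1, the 1 without p21mTert replicate 1. In other cells the count was 1 with DESeq2 for both contrasts with p21mTertCD. These causes were not tested. The number of genes highest in club-like cells was 37 by pooled UMIs and 4 by the median over libraries. Over all genes, the 6 ciliated calls of p21mTert minus p21Het were 21 with DESeq2 and 78 with no filter, the 2 of p21mTert minus p21mTertCD were 20 and 76, and the 1 of p21mTertCD minus p21Het was 5 and 12. In other cells DESeq2 called 38, 155 and 177 where edgeR called 2, 1 and 21. In the same order of contrasts, the differences in the ciliated share ranged from 0.326 to 1.40, 0.744 to 1.44 and -0.725 to -0.0593 percentage points, and were 0.294, 0.52 and -0.226 on the logit scale, none passing an exact permutation test. By the numbers in the titles, p21Het and p21mTert share 2 and 3, and p21mTertCD shares only 2 with either, since the titles of p21Het and p21mTert libraries of the first deposit carry no number. With the replicate block over those 4 libraries the ciliated share differed by 1.40 (exact permutation p = 0.5, the smallest that 2 pairs can give), 0 axonemal genes were called, and 14 genes in all were called in ciliated and 0 in other cells. Same-numbered libraries did not deviate together (correlation -0.11 in ciliated, -0.414 in other cells). With crossed numbers 70 and 0 genes were called, 0 of them axonemal. For the contrasts with p21mTertCD, no paired analysis was possible because their groups share only 1 number. Shallow depth limits genes under about 50 ciliated UMIs.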
